A study of Mus musculus with 6 samples.

Results

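The 10 genes examined here encode subunits of the BAF chromatin remodelling complex, among them those exchanged when a neural progenitor becomes a neuron. They were chosen by name: the ATPases Smarca4 and Smarca2, the actin-like subunits Actl6a and Actl6b, the SS18 subunits Ss18 and Ss18l1, and the PHD finger subunits Phf10, Dpf1, Dpf2 and Dpf3. All 10 were found among the 24060 genes of the table, and all 10 passed the filter on low counts. Retinal ganglion cells (RGCs), the neurons whose axons form the optic nerve, were purified from C57BL/6 mice at embryonic day 18 (E18, 3 samples) and postnatal day 5 (P5, 3 samples). No treatment or transgene was involved, and the labels do not say how many animals a sample holds. The purification was by immunopanning, in which cells from papain-dissociated retinas first passed dishes with an antibody against macrophages and were then held on dishes with an antibody against CD90 (Thy1). The study compared these ages because RGCs extend axons readily in the embryo and lose that capacity after birth.

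BAF uses the energy of ATP to slide or evict nucleosomes, and every complex holds a single ATPase, either Brg1 (encoded by Smarca4) or Brm (Smarca2). In neural progenitors the complex carries BAF53a (Actl6a), BAF45a (Phf10) and SS18. In postmitotic neurons these are replaced by BAF53b (Actl6b), BAF45b (Dpf1) or BAF45c (Dpf3), and CREST (Ss18l1), and the neuronal form is known for its role in dendrite growth and in gene expression driven by activity. BAF45d (Dpf2) is found in many cell types. The exchange of the actin-like subunit is known to depend on the microRNAs miR-9-3p (also called miR-9*) and miR-124, which repress Actl6a through its 3' untranslated region (UTR) and are themselves repressed by REST in cells that are not neurons.

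Sequencing depth was similar in all samples, with 81213639 to 114512853 reads counted on genes. The 15 RGC marker genes summed to 8370 to 9568 CPM (the reads of a gene as a rate of all reads counted in the sample, scaled by TMM, edgeR's correction for library composition) at E18 and 9003 to 10126 CPM at P5, so the labelled cell type was present at both ages. Of these 15 genes, 3 were higher at E18, 6 were lower and 6 did not pass by the edgeR test described below. Thy1, the panning antigen, was 2.24-fold higher at P5, and Isl1 was 2.15-fold higher at E18. The similar sums therefore hide changes in single genes. Markers of other cells were not evenly spread. The 14 genes of dividing cells summed to 355, 148 and 93.6 CPM in E18 replicates 1, 3 and 4 and to 71.6 to 90.2 CPM at P5, and the 12 retinal progenitor genes to 188, 129 and 32.4 CPM against 21.6 to 30.0 CPM. Of these, 10 of 14 and 7 of 12 were higher at E18 and none was lower by the edgeR test described below. No gene of these lists was at 0 in every sample. Of the 10 amacrine genes, 4 were higher at E18, among them Tfap2b with 47.5, 119 and 1.62 CPM at E18 against 1.02 to 1.55 CPM at P5. The sum of this list was 870 to 952 CPM at E18 and 1161 to 1507 CPM at P5. Most of it was Calb2, with 748 to 854 CPM at E18 and 1137 to 1478 CPM at P5. Calb2 was the only gene of the list that was lower at E18. Of the 12 photoreceptor genes, 5 were higher and 2 lower at E18, with sums of 11.4 to 32.2 and 14.4 to 25.1 CPM. Of the 9 endothelial and pericyte genes, Pecam1, Tek and Rgs5 were lower at E18 and only Kdr was higher, with 69.5, 62.9 and 14.1 CPM at E18 in a list that summed to 72.8, 64.6 and 16.5 CPM there and to 14.6 to 17.9 CPM at P5. The remaining sums at E18 and P5 were 50.7 to 55.4 and 83.7 to 115 CPM for bipolar cells (0 genes higher at E18 and 4 lower), 352 to 378 and 319 to 327 CPM for Müller glia and astrocytes (1 higher, 1 lower) and 93.1 to 93.5 and 54.5 to 73.4 CPM for the oligodendrocyte lineage (1 higher, 1 lower). Most of the Müller glia and astrocyte sum was Glul, with means of 320 and 251 CPM at E18 and P5. Prkca was the largest part of the bipolar sum (42.3 and 78.7 CPM) and Mbp of the oligodendrocyte sum (46.0 and 35.2 CPM). Microglia and red blood cells summed to at most 3.00 and 1.86 CPM, with no gene past the threshold and with 3 of 7 red blood cell genes at 0 in all samples. The part of these cells in the results was not tested. In pooled RNA of this kind, a lower value cannot be told apart from fewer cells that express the gene.

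Of the paired subunits, the ATPases moved in opposite directions between the ages: Smarca4 was lower at P5 and Smarca2 was higher. In the actin-like and SS18 pairs the neuronal and the progenitor form were both lower at P5. Among the PHD finger subunits the neuronal forms were lower at P5 and the progenitor form did not pass the test. Of the 10 genes, 8 were higher at E18 by edgeR's quasi-likelihood test (threshold 0.05 on the adjusted p), against 20.8% of the 16449 genes tested. Only Smarca2 was lower at E18 (22.5% of all genes tested), and Phf10 did not pass. The standard errors (SE) and adjusted p-values below are from the same fit. All 4 neuronal subunits, Actl6b, Dpf1, Dpf3 and Ss18l1, were among those higher at E18. Across all genes, 43.4% passed in either direction. For 9 of the 10 members the E18 and P5 values did not overlap, which was so for 56.1% of all genes. The median log2 fold change (E18 over P5, so positive is higher at E18) was 0.55 over the members and 0.00473 over all genes tested. Without E18 replicate 1, the sample with the highest sums of dividing and progenitor genes, 8 members were higher and 1 was lower, with a median of 0.56, while 30.5% of all genes passed in that fit. In the same fit 6 progenitor genes and 5 amacrine genes were higher at E18, against 7 and 4 with all samples. Without E18 replicate 3, 6 members passed, and 27.3% of all genes did. E18 replicate 4 had the lowest sums of dividing and progenitor genes and the lowest Tfap2b of the E18 samples. Its values of the 8 genes higher at E18 lay above every P5 sample. This follows from the lack of overlap given above and is no separate result.

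**Figure D1:**
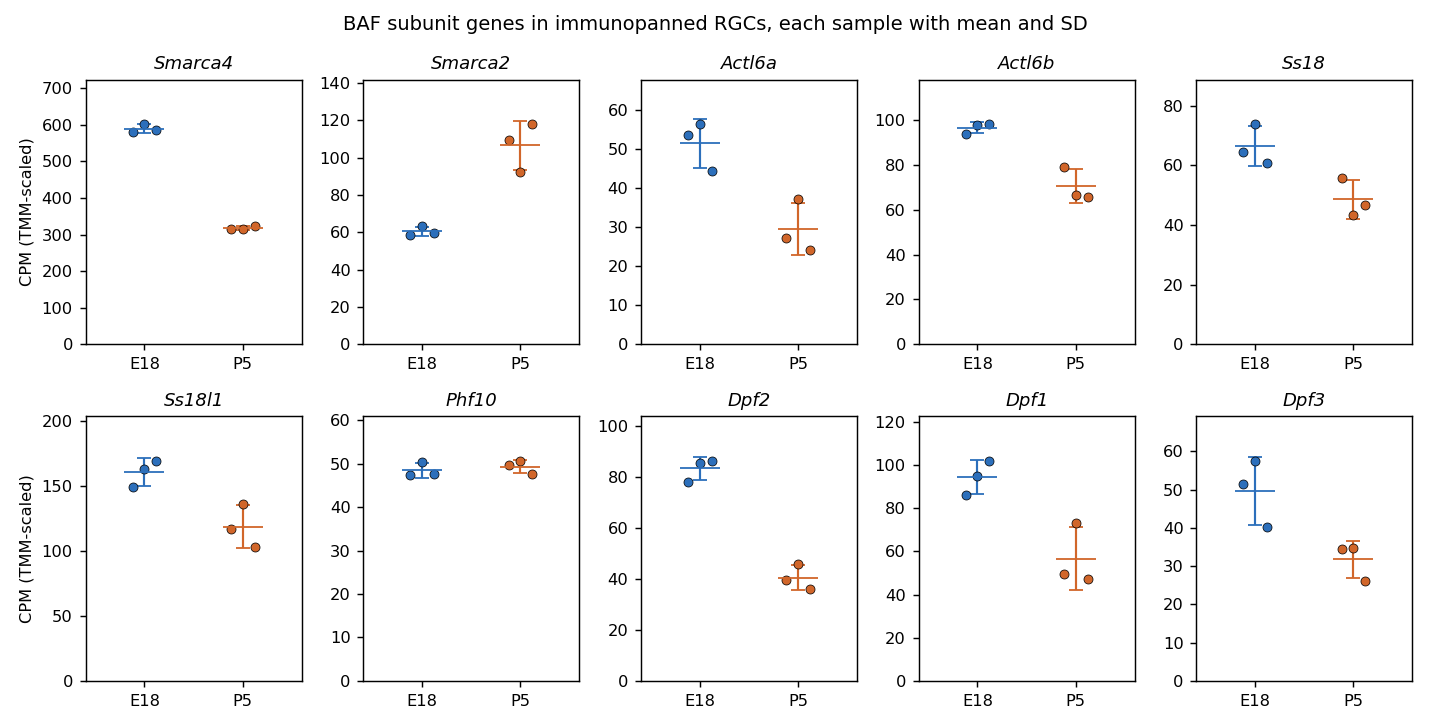
Expression of the 10 BAF subunit genes in each sample, in TMM-scaled CPM on linear axes that start at 0, with points for samples, a horizontal bar for the mean and error bars for the SD (n = 3 per age). Smarca2 is the only gene with all P5 points above all E18 points, Phf10 overlaps between the ages, and the other 8 have all P5 points below all E18 points.

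Smarca4 encodes Brg1, the ATPase of most BAF complexes in progenitors. It lies on chromosome 9 of mm10 (21616169 to 21704230, plus strand). Its expression was 582, 603 and 585 CPM in E18 replicates 1, 3 and 4 and 314, 314 and 324 CPM in P5 replicates 6, 8 and 9. The samples of each age lay close together, and the ages were far apart. The means were 589.9 ± 11.5 CPM (SD, n = 3) at E18 and 318 ± 5.97 CPM at P5 (SD, n = 3). This gave a log2 fold change of 0.89 ± 0.0758 (SE, edgeR adjusted p = 0.000166), or 1.86-fold higher at E18.

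Smarca2 encodes Brm, the alternative ATPase, which is known to be more abundant in differentiated than in dividing cells. It lies on chromosome 19 (26605050 to 26778322, plus strand). Expression was 58.3, 63.4 and 59.8 CPM in the E18 samples and 109, 92.6 and 118 CPM in P5 replicates 6, 8 and 9. Every P5 sample was above every E18 sample, with P5 replicate 8 nearest to E18. The means of 60.5 ± 2.62 and 107 ± 13.03 CPM (SD, n = 3 each) gave a log2 fold change of -0.82 ± 0.108 (SE, edgeR adjusted p = 0.000853), so that Smarca2 was 1.76-fold higher at P5.

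The ratio of Smarca2 to Smarca4 counts within a sample does not depend on how libraries are scaled. On the log2 scale it was -3.32, -3.25 and -3.29 in the E18 samples and -1.52, -1.76 and -1.46 in the P5 samples. The ratio was thus 3.26-fold higher at P5, a difference of 1.71 log2 units, and the ages did not overlap. Per kilobase of exon, Smarca2 made up 9.35%, 9.77% and 9.52% of the ATPase RNA in the E18 samples and 26.4%, 23.3% and 27.3% in the P5 samples. Smarca4 therefore remained the larger part at both ages, with 74.4% ± 2.11 (SD, n = 3) at P5. The exon length chosen matters for the share, which was 4.44% at E18 and 13.2% at P5 with all exons that GENCODE gives these genes, and it leaves the difference in the ratio unchanged.

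The promoter windows of the ATPase genes are shown because these genes moved in opposite directions. They are RefSeq sequences on GRCm38.p6 from 250 bases before to 50 bases after the transcription start, at chr9:21615919-21616218 (plus strand) for Smarca4 and chr19:26604910-26605209 (plus strand) for Smarca2. Capitals mark matches to the GC box (GGGCGG), the CCAAT box (CCAAT) and the core of the Ets family site (CCGGAAG), each on either strand, and overlapping matches run together.
Smarca4 promoter: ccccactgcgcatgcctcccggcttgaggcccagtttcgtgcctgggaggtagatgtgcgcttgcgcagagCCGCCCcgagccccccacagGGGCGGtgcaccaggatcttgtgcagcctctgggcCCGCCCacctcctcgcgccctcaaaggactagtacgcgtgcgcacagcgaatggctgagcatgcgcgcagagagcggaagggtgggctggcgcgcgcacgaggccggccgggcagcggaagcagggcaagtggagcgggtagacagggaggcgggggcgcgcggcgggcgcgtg
Smarca2 promoter: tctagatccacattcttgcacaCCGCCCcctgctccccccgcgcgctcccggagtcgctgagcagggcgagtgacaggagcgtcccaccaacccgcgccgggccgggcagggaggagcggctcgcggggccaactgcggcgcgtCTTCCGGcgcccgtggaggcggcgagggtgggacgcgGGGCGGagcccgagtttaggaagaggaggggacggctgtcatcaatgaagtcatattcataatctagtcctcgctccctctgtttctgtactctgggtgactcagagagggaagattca
Both windows are rich in G and C, with 72.3% for Smarca4 and 65.7% for Smarca2 against a median of 52.7% over 32851 promoter windows. The Smarca4 window holds 3 GC boxes and the Smarca2 window 2. A GC box occurs in 35.7% of all windows. The Smarca2 window also holds an Ets core, the kind of site bound by Elk-1, which the study followed. An Ets core occurs in 8.9% of all windows and in 1 of the 9 member windows found in the table. These are matches of letters, and no binding was measured.

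Actl6a and Actl6b encode the actin-like subunits BAF53a and BAF53b, the progenitor and neuronal forms. Both were lower at P5. Actl6a (chromosome 3, 32706298 to 32726973, plus strand) had 53.4, 56.4 and 44.4 CPM in E18 replicates 1, 3 and 4 and 27.0, 37.1 and 24.2 CPM in P5 replicates 6, 8 and 9. The closest samples were E18 replicate 4 and P5 replicate 8, and the ages did not overlap. Its log2 fold change was 0.80 ± 0.168 (SE, edgeR adjusted p = 0.00580). Mrpl47, on the opposite strand, covers 22.5% of the Actl6a exon length, and without a stated strand setting reads there cannot be assigned. Mrpl47 itself had a log2 fold change of -0.10 (edgeR adjusted p = 0.546).

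Actl6b (chromosome 5, 137553517 to 137569582, plus strand) had 93.8, 97.8 and 98.3 CPM in the E18 samples and 79.2, 66.5 and 65.5 CPM in the P5 samples. The E18 values were tightly grouped and all above the P5 values. The log2 fold change was 0.46 ± 0.0994 (SE, edgeR adjusted p = 0.00700), a 1.37-fold difference. The log2 ratio of Actl6b to Actl6a counts was 0.81, 0.79 and 1.15 in the E18 samples and 1.55, 0.84 and 1.44 in the P5 samples. These ranges overlapped, since P5 replicate 8 lay within the E18 range, and the means differed by 0.36. The difference was 0.58 without P5 replicate 8 and 0.22 without P5 replicate 6. Per kilobase of exon, Actl6b made up 70.4% ± 2.82 of this pair at E18 and 75.1% ± 5.05 at P5 (n = 3 for both, SD). With all GENCODE exons the shares were 63.2% and 68.6%, so the neuronal form was the larger part before birth with either length. The limit on reads shared by Actl6a and Mrpl47 applies to the ratio and the shares of this pair too.

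The promoter windows of the actin-like pair, at chr3:32708296-32708595 (plus strand) for Actl6a and chr5:137553296-137553595 (plus strand) for Actl6b, are shown because a progenitor gene and a neuronal gene moved in the same direction. They are again from RefSeq on GRCm38.p6, with the same matches in capitals. The RefSeq start of Actl6a lies inside the GENCODE gene given above, downstream of its first base.
Actl6a promoter: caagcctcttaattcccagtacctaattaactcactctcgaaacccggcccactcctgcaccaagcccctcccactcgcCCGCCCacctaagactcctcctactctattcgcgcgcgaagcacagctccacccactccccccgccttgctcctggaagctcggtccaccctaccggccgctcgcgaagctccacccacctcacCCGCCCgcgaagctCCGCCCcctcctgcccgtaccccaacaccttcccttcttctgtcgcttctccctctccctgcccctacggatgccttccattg
Actl6b promoter: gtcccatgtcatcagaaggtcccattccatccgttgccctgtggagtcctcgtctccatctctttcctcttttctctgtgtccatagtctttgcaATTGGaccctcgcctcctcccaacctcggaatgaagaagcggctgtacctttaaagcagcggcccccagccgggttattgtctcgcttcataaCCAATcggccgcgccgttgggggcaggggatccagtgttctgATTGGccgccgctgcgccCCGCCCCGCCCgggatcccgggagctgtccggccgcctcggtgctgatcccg
The Actl6b window holds 3 CCAAT boxes and 2 overlapping GC boxes, and the Actl6a window holds 3 GC boxes and no CCAAT box. CCAAT boxes occur in 37.4% of all windows. Among the members, Dpf1, Dpf2 and Dpf3 also have at least 1, and Smarca4, Smarca2, Phf10 and Ss18l1 have none. No window of Ss18 was used here.

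The miR-9-3p seed can be read against the members' 3' UTRs. The seed, bases 2 to 8 of the mature RNA, is in capitals in the RefSeq sequence of the microRNA, and so is its 7-base match in the transcript sequences of GENCODE. The sites lie at chr3:32726625-32726648 (plus strand) in Actl6a and chr19:26777487-26777510 (plus strand) in Smarca2, on mm10.
mmu-miR-9-3p: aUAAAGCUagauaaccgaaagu
Actl6a site: cacctcaacgtctgtAGCTTTAgt
Smarca2 site: ttgtcatctagaactAGCTTTAgg
Only the transcript of each gene's RefSeq record was searched, and matches to miR-124 were not. Of the 10 members, only Actl6a and Smarca2 had a miR-9-3p match there, 1 each, in 3' UTRs of 371 and 951 bases. The 3' UTRs searched for Phf10, Actl6b and Dpf3 were short, with 90, 196 and 227 bases. A match occurs in 10.2% of the 16360 genes with a 3' UTR examined. Actl6a was lower and Smarca2 higher at P5. Mature microRNAs were not measured.

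Ss18 and Ss18l1 encode the SS18 subunit and its neuronal relative CREST, a calcium-responsive coactivator. Both were lower at P5 by nearly the same amount. Ss18 (chromosome 18, 14624198 to 14682914, minus strand) had 64.7, 74.0 and 60.7 CPM in the E18 samples and 56.0, 43.3 and 46.8 CPM in the P5 samples. Here E18 replicate 4 and P5 replicate 6 were close, without overlap of the ages. The log2 fold change was 0.45 ± 0.123 (SE, edgeR adjusted p = 0.0187). It no longer passed without E18 replicate 3 (adjusted p = 0.0840 in edgeR) and without P5 replicate 9 (adjusted p = 0.0552 in edgeR), against 0.00449 to 0.0840 over all alternatives run.

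Ss18l1 (chromosome 2, 180042509 to 180070201, plus strand) had 149, 164 and 169.8 CPM in the E18 samples and 117, 137 and 103 CPM in the P5 samples, with P5 replicate 8 nearest to E18. Its log2 fold change was 0.44 ± 0.116 (SE, edgeR adjusted p = 0.0162). The adjusted p rose past the threshold, in edgeR, without E18 replicate 3 (0.0564), E18 replicate 4 (0.0527) or P5 replicate 6 (0.0546), against 0.00260 to 0.0564 over all alternatives run. The log2 ratio of Ss18l1 to Ss18 counts was 1.21, 1.144 and 1.48 at E18 and 1.06, 1.66 and 1.141 at P5. The ranges overlapped, with P5 replicate 8 above all E18 samples and P5 replicates 6 and 9 below them. Ss18l1 made up 71.6% ± 2.501 of the E18 pair and 71.6% ± 4.41 of the P5 pair per kilobase of exon (SD, n = 3 for both).

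The PHD finger subunits bind modified histone tails. Phf10, the progenitor form BAF45a (chromosome 17, 14945009 to 14961273, minus strand), had 47.4, 50.4 and 47.7 CPM in the E18 samples and 49.8, 50.8 and 47.6 CPM in the P5 samples. The ages overlapped fully. The log2 fold change was -0.03 ± 0.0855 (SE, edgeR adjusted p = 0.830). The gene 1600012H06Rik, on the opposite strand, covers 25.8% of the Phf10 exon length and was itself lower at E18, with a log2 fold change of -0.52 (edgeR adjusted p = 0.00305). Without a stated strand setting, reads in that stretch cannot be assigned. The same limit applies to the ratios to Phf10 and to the Phf10 share below.

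Dpf1, the neuronal form BAF45b (chromosome 7, 29303951 to 29318243, plus strand), had 86.3, 95.1 and 102 CPM in the E18 samples and 49.4, 73.4 and 47.0 CPM in the P5 samples. All P5 samples were lower, P5 replicate 8 least so. Its log2 fold change was 0.74 ± 0.168 (SE, edgeR adjusted p = 0.00834). Dpf3, the neuronal form BAF45c (chromosome 12, 83213745 to 83487716, minus strand), had 51.6, 57.6 and 40.1 CPM in the E18 samples and 34.5, 34.7 and 26.2 CPM in the P5 samples. E18 replicate 4 was the E18 sample nearest to P5. The log2 fold change was 0.65 ± 0.161 (SE, edgeR adjusted p = 0.0124), and without E18 replicate 3 the adjusted p was 0.0538, against 0.000866 to 0.0538 over all alternatives run.

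Dpf2, the widely expressed form BAF45d (chromosome 19, 5896516 to 5913010, minus strand), differed most in this group. It had 78.2, 85.6 and 86.5 CPM in the E18 samples and 39.8, 45.9 and 36.0 CPM in the P5 samples, which left a wide gap between the ages. It was 2.06-fold higher at E18 (log2 1.04 ± 0.110 SE, edgeR adjusted p = 0.000362). Phf10 did not pass and its 3 relatives were lower at P5. Its share of the PHD finger RNA per kilobase of exon was 26.8% ± 0.696 at E18 and 39.8% ± 3.70 at P5 (n = 3 each, SD). The shares at E18 and P5 were 22.8% ± 0.538 and 16.1% ± 0.177 for Dpf2, 37.6% ± 2.31 and 32.3% ± 4.20 for Dpf1, and 12.8% ± 2.25 and 11.9% ± 1.25 for Dpf3 (SD, n = 3 each). With all GENCODE exons the Dpf3 shares were 22.6% and 21.9%, above 19.0% for Phf10 at E18, so the order within this family depends on the length used. The log2 ratio of Dpf1 to Phf10 counts was 0.87, 0.92 and 1.10 at E18 and -0.01, 0.53 and -0.02 at P5. For Dpf3 to Phf10 it was 0.12, 0.19 and -0.25 at E18 and -0.53, -0.55 and -0.86 at P5. Both ratios of a neuronal to the progenitor form were lower at P5, by 0.79 and 0.67 on the log2 scale, with no overlap. The ratio of Dpf1 to Dpf2 was the other way, with 0.14, 0.15 and 0.24 at E18 and 0.31, 0.68 and 0.38 at P5, also with no overlap. The means were 0.18 ± 0.0536 at E18 and 0.46 ± 0.194 at P5 (n = 3 each, SD). They differed by 0.28, and by 0.17 without P5 replicate 8.

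**Figure D2:**
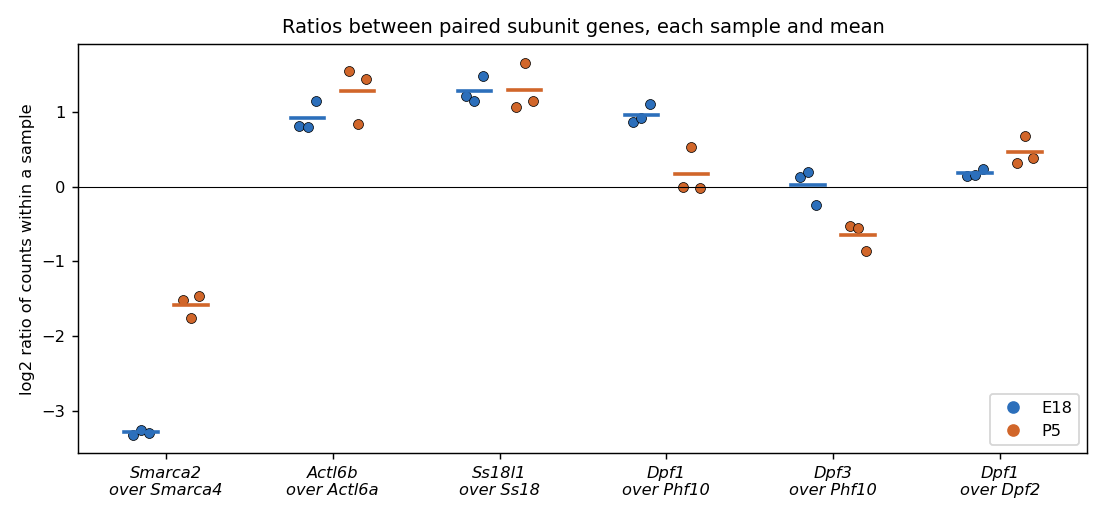
Log2 ratios of raw counts of paired subunit genes within each sample (points) with the mean of each age (bars); gene length is not corrected, so only the shift between ages can be read. Smarca2 over Smarca4 is higher by 1.71 at P5, and Dpf1 over Dpf2 is higher by 0.28. The ratios of Dpf1 and Dpf3 to Phf10 are lower at P5. None of these overlaps between the ages, whereas the ratios of Actl6b to Actl6a and of Ss18l1 to Ss18 do.

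**Figure D3:**
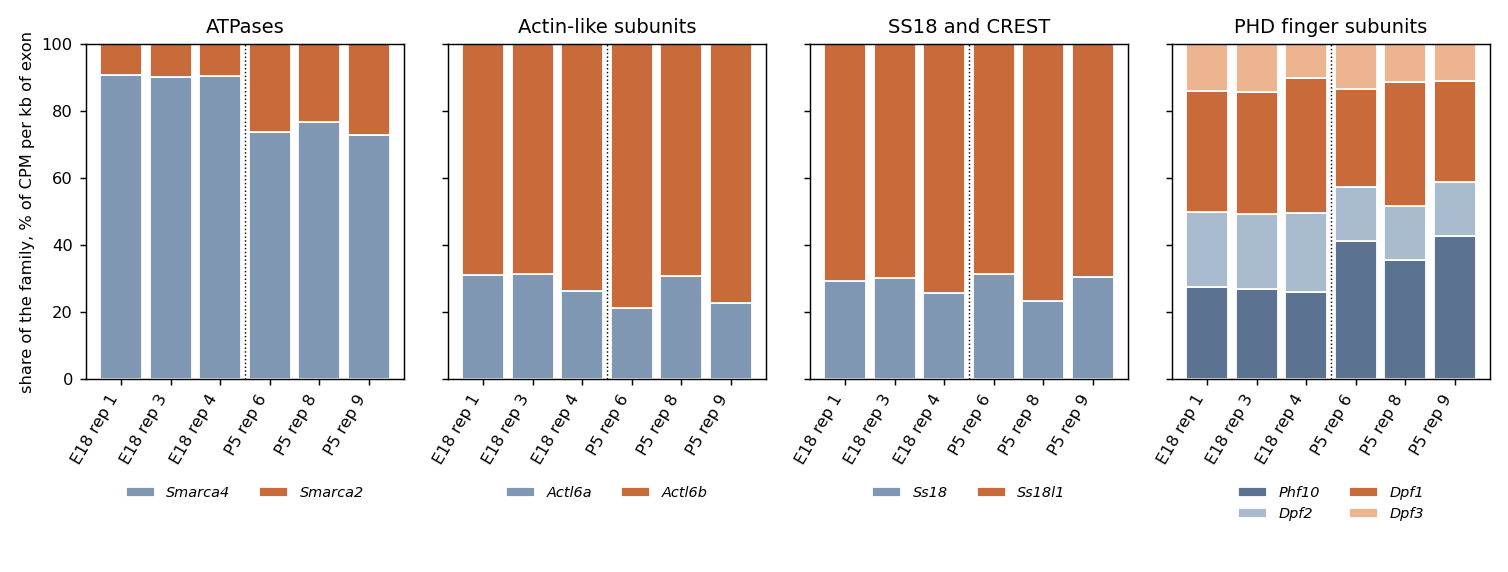
Share of each gene within its subunit family in each sample, in percent of CPM per kilobase of exon, with progenitor or widely expressed forms in blue and neuronal forms or Smarca2 in orange. The Smarca2 share is 9.35% to 9.77% at E18 and 23.3% to 27.3% at P5, and the Phf10 share is larger at P5.

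Per kilobase of exon, the levels of the members could be ordered within each age. At E18, Smarca4 was highest (92.5 ± 1.80 CPM per kb), followed by Actl6b (60.7 ± 1.56), Dpf1 (40.9 ± 3.43), Ss18l1 (37.1 ± 2.41), Phf10 (29.2 ± 1.01), Actl6a (25.6 ± 3.11), Dpf2 (24.9 ± 1.36), Ss18 (14.7 ± 1.503), Dpf3 (13.96 ± 2.49) and Smarca2 (9.77 ± 0.423; all SD, n = 3). The neighbours Dpf1 and Ss18l1, Actl6a and Dpf2, and Ss18 and Dpf3 overlapped in their values. At P5, Smarca4 (49.8 ± 0.936 CPM per kb) and Actl6b (44.2 ± 4.80) overlapped at the top, Phf10 (29.7 ± 0.966), Ss18l1 (27.4 ± 3.86) and Dpf1 (24.5 ± 6.32) formed an overlapping series, and so did Smarca2 (17.2 ± 2.10), Actl6a (14.7 ± 3.36), Dpf2 (12.1 ± 1.47), Ss18 (10.8 ± 1.44) and Dpf3 (8.92 ± 1.36; all SD, n = 3). Smarca2 thus moved from position 10 to position 6. The lengths are those of transcripts linked to RefSeq records, and the order depends on them.

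Within an age, the members did not all follow the same sample. Among the E18 samples, Actl6a, Ss18 and Dpf3 were lowest in replicate 4, the sample with the lowest sums of dividing and progenitor genes, and Actl6b, Dpf1, Dpf2 and Ss18l1 were highest there. The part of dividing cells in this was not tested. Among the P5 samples, replicate 8 lay closest to the E18 mean for 6 of the 9 members that passed, Smarca2, Actl6a, Dpf1, Dpf2, Dpf3 and Ss18l1. The same sample was the closest for 64.2% of all 7135 genes that passed.

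The rest of the complex was examined in 20 further subunits of BAF and of its relative PBAF. Of these, 13 were higher at E18, 1 was lower and 6 did not pass by edgeR's quasi-likelihood test, against the shares of 20.8% and 22.5% of all genes given above, and their median log2 fold change was 0.44. Among the subunits of the core, Smarce1, a DNA-binding subunit, had 230, 263 and 235 CPM at E18 and 142, 163 and 113 CPM at P5 (log2 fold change 0.80, adjusted p = 0.00236 in edgeR). Smarcc1 and Smarcc2, the scaffold pair BAF155 and BAF170, had log2 fold changes of 0.60 (adjusted p = 0.00265 in edgeR) and 0.22 (adjusted p = 0.0513 in edgeR). Smarcb1 was higher at E18 by 0.27 (adjusted p = 0.0232 in edgeR). Of the BAF60 genes, Smarcd1 and Smarcd2 were higher at E18, with log2 fold changes of 0.67 and 0.39, whereas Smarcd3, the form known from muscle and neurons, had -0.15 (adjusted p = 0.240 in edgeR).

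The large subunits that define BAF, Arid1a and Arid1b, were higher at E18, with log2 fold changes of 0.77 and 0.60 (adjusted p = 0.00254 and 0.00160 in edgeR). Of the subunits that define PBAF, Pbrm1 and Brd7 were higher at E18 (0.48 and 0.40, adjusted p = 0.00535 and 0.00949 in edgeR), and Arid2 had 0.09 (adjusted p = 0.668 in edgeR). Gltscr1 and Gltscr1l, which mark the noncanonical complex, were both higher at E18, 2.82-fold (5.03 and 1.78 CPM) and 1.499-fold (44.1 and 29.4 CPM), and their partner Brd9 had 0.19 (adjusted p = 0.178 in edgeR). Bcl11a and Bcl11b, zinc finger proteins found in the BAF of neural and lymphoid cells, moved in opposite directions. Bcl11a had 30.8, 34.4 and 36.5 CPM at E18 and 16.1, 16.9 and 16.9 CPM at P5 (log2 1.03 ± 0.105 SE, edgeR adjusted p = 0.000336). Bcl11b had 27.8, 27.7 and 24.9 CPM at E18 and 44.0, 42.5 and 34.9 CPM at P5 (log2 -0.59 ± 0.116 SE, edgeR adjusted p = 0.00440). Bcl7a was higher at E18 (0.50, adjusted p = 0.0108 in edgeR), and Bcl7b and Bcl7c did not pass (0.05 and 0.27).

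**Figure D4:**
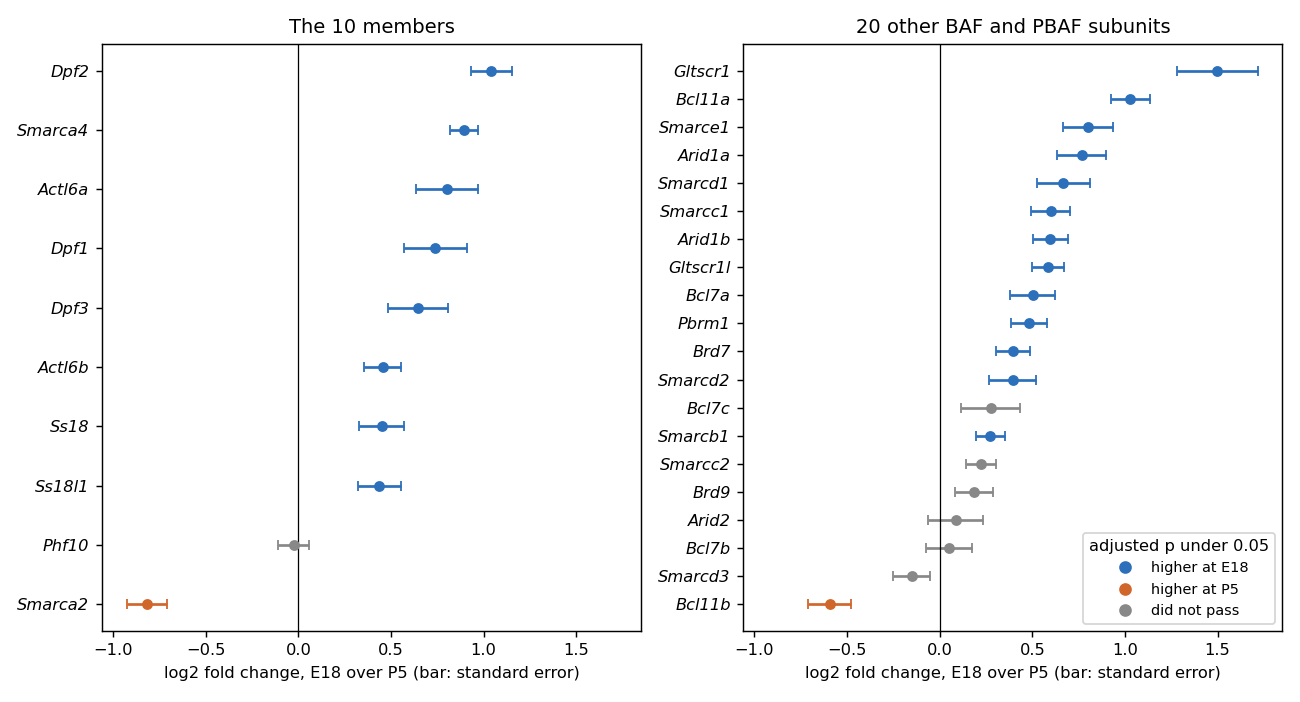
Log2 fold changes (E18 over P5) with standard errors from the edgeR fit for the 10 members and for 20 other BAF and PBAF subunits; blue and orange mark genes higher at E18 and at P5 with an adjusted p under 0.05, and grey marks genes that did not pass. Smarca2 and Bcl11b are the only genes of their panels that passed with higher values at P5.

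Genes known to act on the subunit exchange were also measured. Of 8 found in the table, 3 were higher at E18, 1 was lower and 4 did not pass, so 4 of 8 passed against 43.4% of all genes tested. Rest had 20.5, 18.41 and 12.4 CPM at E18 and 6.24, 10.8 and 4.68 CPM at P5 (log2 1.24 ± 0.304 SE, edgeR adjusted p = 0.0115). Its corepressor Rcor1 had a log2 fold change of 0.18 (adjusted p = 0.175 in edgeR). Ptbp1, a splicing repressor that miR-124 is known to target, was 2.25-fold higher at E18 (log2 fold change 1.17, adjusted p = 0.000599 in edgeR), and its neuronal relative Ptbp2 had 0.11 (adjusted p = 0.419 in edgeR).

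The host transcripts of the microRNAs were read under their older symbols, matched through RefSeq synonyms, and their counts do not measure the mature microRNAs. The miR-124 hosts differed from each other. A930011O12Rik (Mir124a-1hg, also Rncr3) had 38.5, 37.2 and 34.8 CPM at E18 and 29.1, 38.0 and 43.4 CPM at P5, with overlap (log2 fold change -0.00151, adjusted p = 0.995 in edgeR), and 2610100L16Rik (Mir124-2hg) was higher at E18 (0.68, adjusted p = 0.00808 in edgeR). Of the miR-9 hosts, C130071C03Rik had a log2 fold change of -0.14 (adjusted p = 0.638 in edgeR), and AI854517 (Mir9-3hg) was lower at E18 (-1.27, adjusted p = 0.00787 in edgeR) at only 0.839 ± 0.147 and 2.03 ± 0.571 CPM (SD, n = 3 each).

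For comparison, 16 ATPases of other remodelling families were read in the same fit. Of these, 7 were higher at E18, none was lower, and their median log2 fold change was 0.35. The 7 of 16 that passed are close to the 43.4% of all genes tested, and the 7 higher at E18 compare with 20.8% of all genes. Among those that passed, the largest differences were in Chd7 (1.40, adjusted p = 0.00171 in edgeR), Chd1 (0.79, adjusted p = 0.00529 in edgeR) and Ep400 (0.74, adjusted p = 0.00174 in edgeR). Smarca2 was therefore the only one of the 18 remodelling ATPases read here, Smarca4 included, that passed with a higher value at P5.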

How the data were processed

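RNA was sequenced from 3 E18 and 3 P5 samples of immunopanned RGCs. The protocol names a TruSeq library with ribosomal RNA depletion, whereas the labels name polyA RNA. Alignment by the authors was to mm10 with STAR and counting was by HT-seq over RefSeq genes. The deposited raw counts per gene were used here. Whether counting used strand, and what was done with multi-mapping reads, is not given in the sources used here. The normalized counts, a signal scaled by the authors, and the deposited log2 fold changes, p-values, false discovery rates, ratios to P5 and rank hold the authors' own comparison and were not used. One column name holds the numbers 1, 2 and 5 and was matched to E18 replicate 1, the only label with any of them. Whether this sample pools several preparations, unlike the others, is not stated.

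Counts were normalized by TMM and fitted in edgeR 4.0.16 (R 4.3.3), with its quasi-likelihood test, over all 16449 genes that passed filterByExpr, with Benjamini-Hochberg adjustment. Standard errors are the log2 fold change divided by the square root of the F statistic. Between samples of an age, the variance was 30.5 to 141 times that of sampling noise (chi-square per degree of freedom), so none was a copy of another. This cannot tell separate animals from separate preparations of the same cells. The spread between samples sets the precision. Whether samples come from separate litters is not stated, so p-values measure only the spread between these samples. The procedure was tested on simulated counts. Lengths and gene positions are those of GENCODE M21 on mm10. Length-corrected values use transcripts linked to RefSeq, and other lengths were tried after the data were seen.

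The genes reported are the 10 members, the lists of other BAF subunits and of regulators, and the 3 other remodelling ATPases with the largest differences that passed; Mrpl47 and 1600012H06Rik are named because they overlap members. The members and lists were chosen with earlier results of these data known. One gene of the list of other remodelling ATPases is not analysed here. Alternatives were other normalizations, filters and tests (DESeq2 1.42.0 and edgeR's exact and likelihood ratio tests) and fits that omit 1 sample.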

Additional observations from a re-analysis of the deposited data

How the results depend on the processing

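The count of 9 members past the threshold was the same under edgeR's RLE, upper-quartile and library-size scaling, DESeq2, the exact and likelihood ratio tests and both other filters, and 6 to 9 over the omissions of 1 sample. Of 140 refitted member values, 134 kept their direction and their side of the threshold, and the other 6, all with a sample left out, kept their direction. These were values of Dpf3 (log2 fold change 0.52 to 0.78 over the omissions), Ss18 (0.35 to 0.54) and Ss18l1 (0.34 to 0.53), each with fewer samples in the fit. The log2 ratio of Ss18l1 to Ss18, 0.00883 higher at P5 with all samples, ran from -0.18 (without P5 replicate 8) to 0.12 and had a negative sign in 3 of the 6 omissions, among them those without E18 replicate 1 (-0.03) and E18 replicate 3 (-0.06). The other ratios kept their sign, and adding 0.5 to each count left every ratio within 1 SD of its value. Over all alternatives, the counts ran from 11 to 17 of 20 for the other BAF and PBAF subunits, 3 to 4 of 8 for the regulators and 5 to 9 of 16 for the other ATPases, the last highest in DESeq2. No paired analysis was possible because the ages share no replicate number. The fewest reads behind a member in any sample were 2278, and the samples of an age differed by more than sampling noise.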
